A study of Homo sapiens with 12 samples.

Results

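The 6 ribosome libraries of a study of neural induction in human embryonic stem cells are described here, 3 from embryonic stem cells (ESC) and 3 from neural progenitor cells (NPC), out of 12 libraries in all. The members were all libraries whose label gives the molecule as RNA bound to ribosomes, and each gene was tested for a change of its ribosome-bound count between the 2 cell states. The other 6 libraries hold total RNA of the same states and enter only where a difference between the assays is tested. Both states came from HUES8, an established human embryonic stem cell line labelled WT, so that the data speak of 1 line. ESC were kept on Matrigel in mTeSR1 medium. NPC were made from them by 7 days in neural induction medium with N2 and B27 supplements, 2.5 uM SB431542 and 0.05 uM LDN193189. SB431542 blocks the receptors of Nodal, activin and TGF-beta and was left out for the last 2 days, whereas LDN193189 blocks BMP type I receptors. Blocking both branches of SMAD signalling is known to turn pluripotent cells towards neuroectoderm. The sources used here do not give how ribosomes were isolated or whether RNA outside them was digested.

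Ribosome-bound RNA is the part of a transcript pool that travels with ribosomes, so a change in it can come from more transcript, from a different load of ribosomes on each transcript, or from other RNA held in ribosome-containing particles. Pluripotent cells are known for the transcription factors POU5F1, NANOG and SOX2 and for Nodal signalling, and early neural progenitors for PAX6, SOX1 and OTX2. Replication-dependent histone mRNAs, the only animal mRNAs that lack a poly(A) tail, and mRNAs of ribosomal proteins, which carry a pyrimidine tract at their start, are textbook classes under translational control.

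Library totals ran from 2422756 to 4451196 counts, and 12250 of 59050 gene symbols had enough counts to be tested. A level is given as CPM, the count scaled to library size after correction by the trimmed mean of M-values (TMM), always for replicates 1, 2 and 3 in that order. With edgeR's quasi-likelihood test and Benjamini-Hochberg adjustment at 0.05, 31.6% of the tested genes were higher in NPC (3865) and 30.3% lower (3707), together 61.8%. The median log2 fold change over all of them was -0.01, and in 67.1% the values of the 2 states did not overlap. A count for a gene list has to be read against these shares. Nothing in the labels says that replicates came from separate cultures, so the p-values measure the spread between these libraries, which may be technical. Across tested genes the log2 levels of ESC replicate 2 correlated with the other 2 ESC libraries at Pearson r = 0.927 and 0.940, whereas ESC replicates 1 and 3 reached 0.976 and the NPC pairs 0.975 to 0.979. Between states r was 0.665 to 0.751. ESC replicate 2 therefore stood apart from its own group, and its median deviation is given beside each list in which it was over 0.5 on the log2 scale; in the other lists it lay between -0.44 (glycolysis) and 0.41 (Notch). A change per bulk library cannot tell fewer cells of a type from less RNA per cell.

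The 4 genes that mark the contrast separated the states in every library. DACH1, a transcriptional co-regulator of neural rosettes and eye field, had 2.50, 0.431 and 1.07 CPM in ESC and 172, 144 and 156 CPM in NPC (log2 fold change 6.78 ± 0.35 SE, edgeR adjusted p = 1.8e-07). MSX1, a homeobox factor that BMP induces in the dorsal neural folds, had 0, 0 and 0 CPM in ESC and 9.94, 13.4 and 9.96 CPM in NPC (at least 34.2-fold higher in NPC, edgeR adjusted p = 1.85e-05). MSX1 had no count at all in ESC, so its fold is a bound against a floor of 3 counts over the 3 ESC libraries. GDF3, a TGF-beta family ligand of pluripotent cells, had 373, 834 and 479 CPM in ESC and 1.92, 1.12 and 2.04 CPM in NPC (log2 fold change -8.33 ± 0.43 SE, edgeR adjusted p = 1.8e-07). CER1, a secreted antagonist of Nodal and BMP, had 449, 668 and 475 CPM in ESC and 2.24, 2.51 and 0.226 CPM in NPC (log2 fold change -8.38 ± 0.47 SE, edgeR adjusted p = 2.58e-07). The first 2 were high in all 3 NPC libraries and the last 2 in all 3 ESC libraries, with no overlap. Among the ESC libraries replicate 2 was highest for GDF3 and CER1. For DACH1 the fitted log2 fold change was 7.52 without ESC replicate 1, and for CER1 it was -7.75 without NPC replicate 3. These 4 genes were chosen with earlier results of these data known, so their separation is no test of the labels. The plot of marker genes shows them with 9 others by library.

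**Figure D1:**
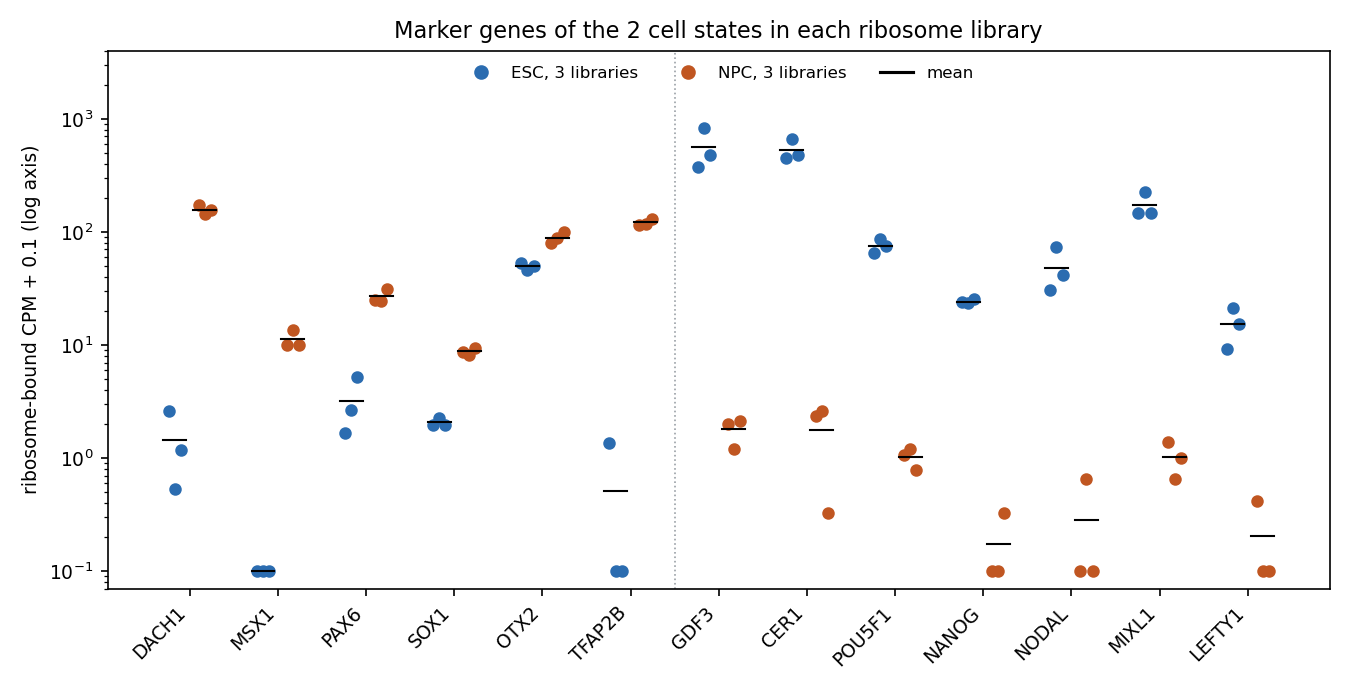
Ribosome-bound level of 13 marker genes in each library, as CPM + 0.1 on a log axis, with 3 ESC (blue) and 3 NPC (orange) libraries and black bars at the mean; a point at 0.1 is a count of 0. The 6 genes left of the dotted line are higher in all NPC libraries and the 7 right of it in all ESC libraries.

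The 15 largest rises among called genes without overlap and with at least 10 CPM in NPC included transcription factors, secreted ligands, a folate receptor and 2 long noncoding RNAs. TFAP2B, an AP-2 factor of the neural plate border, had 1.25, 0 and 0 CPM in ESC and 115, 119 and 131 CPM in NPC (log2 fold change 8.02 ± 0.48 SE, edgeR adjusted p = 3.24e-07). ZFHX4, a large zinc-finger homeodomain protein of developing brain, had 11.2, 0.861 and 4.29 CPM in ESC and 441, 498.9 and 476 CPM in NPC (log2 fold change 6.36 ± 0.50 SE, edgeR adjusted p = 1.36e-06). Each was high in every NPC library and low in every ESC library. ADCYAP1, the precursor of the neuropeptide PACAP, had 0, 0 and 0.268 CPM in ESC and 36.9, 37.4 and 39.6 CPM in NPC (count ratio 353, 95% counting interval 62.99 to 13970.4, higher in NPC, edgeR adjusted p = 3.07e-07). FOLR1, a folate receptor, had 0.312, 0 and 0 CPM in ESC and 19.6, 16.7 and 19.7 CPM in NPC (count ratio 173, 95% counting interval 30.7 to 6869.9, higher in NPC, edgeR adjusted p = 1.63e-06). LMX1A, a homeobox factor of the roof plate, had 0.312, 0 and 0 CPM in ESC and 13.8, 9.48 and 16.5 CPM in NPC (count ratio 125, 95% counting interval 22.1 to 4963, higher in NPC, edgeR adjusted p = 8.64e-06). ADCYAP1, FOLR1 and LMX1A each had 1 count in a single ESC library. WNT7B, a WNT ligand, had 0.312, 0 and 0 CPM in ESC and 15.4, 15.1 and 11.5 CPM in NPC (count ratio 127, 95% counting interval 22.5 to 5062, higher in NPC, edgeR adjusted p = 4.88e-06). BMP5, a BMP ligand, had 0.312, 0 and 0 CPM in ESC and 16.7, 10.3 and 12.7 CPM in NPC (count ratio 121, 95% counting interval 21.3 to 4799, higher in NPC, edgeR adjusted p = 7.63e-06). NEAT1, the long noncoding RNA of paraspeckles, had 0, 0 and 0.268 CPM in ESC and 15.4, 13.7 and 16.1 CPM in NPC (count ratio 139.8, 95% counting interval 24.8 to 5555, higher in NPC, edgeR adjusted p = 2.73e-06). Where a state holds only 1 to 3 counts the fold is a ratio of summed counts, since a fitted value then hangs on single libraries; for ZFHX4 the fitted log2 fold change was 7.34 without ESC replicate 1. The ESC counts of TFAP2B were all in replicate 1, and its fitted value was 7.32 without ESC replicate 3 and 11.71 without ESC replicate 1, the latter against no ESC count at all.

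Others among the 15 largest rises were TFAP2A, a second AP-2 factor, ARHGAP15, a GTPase-activating protein, ZBBX and the long noncoding RNA CT75. CT75 had 0, 0 and 0 CPM in ESC and 25.001, 22.03 and 19.01 CPM in NPC (at least 67.9-fold higher in NPC, edgeR adjusted p = 2.69e-06). ARHGAP15 had 0.312, 0 and 0 CPM in ESC and 25.001, 26.2 and 26.5 CPM in NPC (count ratio 241, 95% counting interval 42.8 to 9533, higher in NPC, edgeR adjusted p = 6.71e-07). TFAP2A had 0.312, 0 and 0 CPM in ESC and 9.62, 17.8 and 6.79 CPM in NPC (count ratio 103, 95% counting interval 18.2 to 4109, higher in NPC, edgeR adjusted p = 4.24e-05). CT75 was at 0 in all ESC libraries. All 3 were higher in every NPC library than in any ESC library, which was a condition of their choice.

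The 15 largest falls, chosen the same way, included the ligands NODAL and GDF3 and the antagonists LEFTY1 and CER1, with NANOG, membrane proteins and an enzyme. NODAL, the TGF-beta family ligand that sustains primed pluripotency, had 30.3, 72.8 and 41.5 CPM in ESC and 0, 0.558 and 0 CPM in NPC (count ratio 253, 95% counting interval 69.6 to 2095, lower in NPC, edgeR adjusted p = 1.79e-06). LEFTY1, its feedback antagonist, had 9.05, 21.1 and 15.3 CPM in ESC and 0.321, 0 and 0 CPM in NPC (count ratio 162, 95% counting interval 28.6 to 6454, lower in NPC, edgeR adjusted p = 9.93e-06). MIXL1, a homeobox factor of the primitive streak, had 147, 224 and 146 CPM in ESC and 1.28, 0.558 and 0.905 CPM in NPC (log2 fold change -7.52 ± 0.35 SE, edgeR adjusted p = 1.8e-07). All 3 were at or below 1.28 CPM in NPC. TIMP4, a metalloproteinase inhibitor, had 64.9, 137 and 69.1 CPM in ESC and 0, 0.558 and 0.453 CPM in NPC (log2 fold change -7.83 ± 0.53 SE, edgeR adjusted p = 5.74e-07). ITM2A, a membrane protein with a BRICHOS domain, had 148, 242 and 146 CPM in ESC and 2.56, 1.95 and 0.453 CPM in NPC (log2 fold change -6.81 ± 0.42 SE, edgeR adjusted p = 3.44e-07). C9orf135, a membrane-associated protein of pluripotent cells, had 156, 217 and 143 CPM in ESC and 0.962, 2.51 and 1.13 CPM in NPC (log2 fold change -6.78 ± 0.35 SE, edgeR adjusted p = 1.8e-07). Replicate 2 was the highest ESC library for each of these 6. KLHL4, a kelch-repeat protein, had 20.3, 26.3 and 33.8 CPM in ESC and 0, 0 and 0 CPM in NPC (at least 99.3-fold lower in NPC, edgeR adjusted p = 2.46e-06). GABRP, a GABA-A receptor subunit, had 12.5, 10.8 and 8.31 CPM in ESC and 0, 0 and 0 CPM in NPC (at least 39.005-fold lower in NPC, edgeR adjusted p = 1.86e-05). IDO1, the first enzyme of tryptophan breakdown, had 35.6, 15.5 and 27.9 CPM in ESC and 0.321, 0 and 0.226 CPM in NPC (count ratio 153, 95% counting interval 41.8 to 1267, lower in NPC, edgeR adjusted p = 2.1e-06). KLHL4 and GABRP had no count in NPC, as did HHLA1 and NPFFR2 of the same 15.

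Ranked by the difference in level in place of fold, among called genes without overlap, the 5 largest gains were 3 noncoding RNAs and the mRNAs of EEF2 and MYH9. RNU1-67P, a copy of the U1 small nuclear RNA, had 981, 464 and 865 CPM in ESC and 18758, 22503 and 21012 CPM in NPC (log2 fold change 4.75 ± 0.39 SE, edgeR adjusted p = 1.76e-06). RNY1, the Y1 RNA that binds the Ro60 protein, had 2681, 4027 and 3091 CPM in ESC and 26574, 20609 and 16102 CPM in NPC (log2 fold change 2.69 ± 0.34 SE, edgeR adjusted p = 3.77e-05). EEF2, the elongation factor that moves the ribosome along, had 4228, 2592 and 3598 CPM in ESC and 9878, 8229 and 10228 CPM in NPC (log2 fold change 1.44 ± 0.29 SE, edgeR adjusted p = 0.00109). In all 3 the lowest NPC library lay above the highest ESC library. MYH9, the heavy chain of nonmuscle myosin IIA, had 879, 466 and 712 CPM in ESC and 4581, 4205 and 4899 CPM in NPC (log2 fold change 2.73 ± 0.29 SE, edgeR adjusted p = 1.24e-05). MALAT1, a nuclear long noncoding RNA, had 242, 266 and 179 CPM in ESC and 3564, 3241 and 2866 CPM in NPC (log2 fold change 3.82 ± 0.27 SE, edgeR adjusted p = 8.19e-07). For U1, reads may belong to any of several near-identical copies. The 5 largest losses under the same limits were mRNAs. RACK1, a protein of the small ribosomal subunit, had 4120.2, 3755 and 4509 CPM in ESC and 1133, 1484 and 1409.8 CPM in NPC (log2 fold change -1.62 ± 0.25 SE, edgeR adjusted p = 0.00016). GSTP1, a glutathione transferase, had 2610.4, 4385 and 2909 CPM in ESC and 593, 637 and 714 CPM in NPC (log2 fold change -2.35 ± 0.28 SE, edgeR adjusted p = 2.29e-05). PRDX1, a peroxiredoxin, had 2726, 2357 and 2778 CPM in ESC and 554, 773 and 745 CPM in NPC (log2 fold change -1.92 ± 0.24 SE, edgeR adjusted p = 4.13e-05). These 3 were lower in every NPC library. ATP5F1B, the beta subunit of ATP synthase, had 3241, 2902 and 3434 CPM in ESC and 717, 875 and 855 CPM in NPC (log2 fold change -1.97 ± 0.24 SE, edgeR adjusted p = 2.9e-05). SCD, which places the double bond in fatty acids, had 2067, 2376 and 2335 CPM in ESC and 319.9, 262 and 257 CPM in NPC (log2 fold change -3.01 ± 0.24 SE, edgeR adjusted p = 1.43e-06). None of these 10 genes overlapped between states, which was a condition of their choice.

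Gene lists were read next. Of the pluripotency genes, 2 of 29 tested members rose, 25 fell and 2 did not pass the threshold, with a median log2 fold change of -2.82. POU5F1 had 64.6, 85.7 and 75.6 CPM in ESC and 0.962, 1.12 and 0.679 CPM in NPC (log2 fold change -6.32 ± 0.30 SE, edgeR adjusted p = 1.8e-07). NANOG had 24.03, 23.3 and 25.2 CPM in ESC and 0, 0 and 0.226 CPM in NPC (count ratio 270.3, 95% counting interval 48.03 to 10725, lower in NPC, edgeR adjusted p = 5.82e-07). Reads of POU5F1 and NANOG can be shared with their pseudogenes, so their values carry that uncertainty. LIN28A, an RNA-binding protein that blocks let-7, had 267, 196 and 263 CPM in ESC and 169.6, 144 and 165 CPM in NPC (log2 fold change -0.60 ± 0.20 SE, edgeR adjusted p = 0.0214). LIN28A passed the threshold narrowly, with adjusted p from 0.0601 to 0.113 by edgeR when ESC replicates 1 or 3 or any NPC replicate was left out. TRIM71, a let-7 target and mRNA repressor, had 57.4, 37.9 and 47.7 CPM in ESC and 103, 101 and 109 CPM in NPC (log2 fold change 1.13 ± 0.20 SE, edgeR adjusted p = 0.000497). SALL4, a zinc-finger factor of stem cells, had 161, 147 and 153 CPM in ESC and 298, 313 and 322 CPM in NPC (log2 fold change 1.02 ± 0.18 SE, edgeR adjusted p = 0.000536). These last 2 were the members that rose. SFRP2, a secreted WNT antagonist and the member with the most counts, had 1566, 3181 and 1844 CPM in ESC and 986, 758 and 963 CPM in NPC (log2 fold change -1.28 ± 0.30 SE, edgeR adjusted p = 0.00262). SOX2, shared by both states, had 170.1, 178 and 176 CPM in ESC and 202, 194 and 187 CPM in NPC (log2 fold change 0.15 ± 0.18 SE, edgeR adjusted p = 0.481). SOX2 stayed within a narrow range in all 6 libraries.

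Of the neural progenitor and forebrain genes, 26 of 33 tested members rose, 1 fell and 6 did not pass the threshold, with a median log2 fold change of 2.40; 7 of the 40 listed had too few counts to be tested. PAX6, the master factor of eye and forebrain, had 1.56, 2.58 and 5.09 CPM in ESC and 25.001, 24.5 and 31.01 CPM in NPC (log2 fold change 3.06 ± 0.35 SE, edgeR adjusted p = 2.05e-05). SOX1, the earliest neural SOX factor, had 1.87, 2.15 and 1.88 CPM in ESC and 8.65, 8.09 and 9.28 CPM in NPC (log2 fold change 2.13 ± 0.36 SE, edgeR adjusted p = 0.000342). OTX2, a head organiser factor that both states express, had 52.7, 46.1 and 50.1 CPM in ESC and 80.1, 87.6 and 98.9 CPM in NPC (log2 fold change 0.84 ± 0.19 SE, edgeR adjusted p = 0.00204). PAX6 and SOX1 were low but separated in every library, while OTX2 was already well detected in ESC. SOX11, a SOX factor of immature neurons and the member with the most counts, had 358, 207 and 312 CPM in ESC and 1521, 1412 and 1599 CPM in NPC (log2 fold change 2.37 ± 0.26 SE, edgeR adjusted p = 1.32e-05). LHX2, a LIM factor of cortex and eye, had 0.624, 0 and 0 CPM in ESC and 9.62, 4.18 and 9.28 CPM in NPC (count ratio 35.8, 95% counting interval 9.61 to 300.2, higher in NPC, edgeR adjusted p = 0.000193). NES, an intermediate filament of progenitors, had 389, 98.2 and 306 CPM in ESC and 399, 609 and 496 CPM in NPC (log2 fold change 0.92 ± 0.39 SE, edgeR adjusted p = 0.0596). The values of NES did not pass the threshold with all libraries (they passed without ESC replicate 2 at log2 0.52, adjusted p 0.00458 by edgeR, and without ESC replicate 1 at 1.30, 0.014), the low library being ESC replicate 2. LMO3, a LIM-only protein, had 12.2, 13.8 and 13.4 CPM in ESC and 1.28, 1.95 and 2.49 CPM in NPC (log2 fold change -2.72 ± 0.35 SE, edgeR adjusted p = 4.4e-05). LMO3 was the single member that fell; the number was 2 without ESC replicate 2, and also with DESeq2 size factors, all 12 libraries in the fit or gene span offsets (a scaling of each library by gene length, described with the span classes). Without ESC replicate 3 the log2 fold change of PAX6 was 3.71. The list's summed level was 1005 to 1633 CPM in ESC and 4462 to 4903 CPM in NPC.

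Of the genes of dorsal neural tube, neural crest and placode, 17 of 21 tested members rose, 2 fell and 2 did not pass the threshold, with a median log2 fold change of 4.30. MSX1, TFAP2A and TFAP2B belong here. SOX9, a SOX factor of crest and radial glia and the member with the most counts, had 32.8, 16.4 and 27.1 CPM in ESC and 159, 200.5 and 194 CPM in NPC (log2 fold change 2.85 ± 0.26 SE, edgeR adjusted p = 3.56e-06). ETS1, an ETS factor, had 70.2, 38.3 and 71.8 CPM in ESC and 2.88, 4.18 and 1.58 CPM in NPC (log2 fold change -4.41 ± 0.37 SE, edgeR adjusted p = 1.98e-06). OLIG3, a bHLH factor of the dorsal neural tube, had 28.1, 28.9 and 32.7 CPM in ESC and 0.962, 1.12 and 0.905 CPM in NPC (log2 fold change -4.87 ± 0.31 SE, edgeR adjusted p = 4.65e-07). SOX9 rose in every NPC library, whereas OLIG3 and ETS1 fell. Over the 6 libraries the log2 levels of TFAP2A and TFAP2B were among those that resembled MSX1 most within the list (Pearson r = 0.986 and 0.985), a likeness that rests on the gap between the 2 states. The summed level was 147 to 229.7 CPM in ESC and 727 to 833 CPM in NPC.

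Posterior neural genes were few: of 21 listed, 8 could be tested, and of these 3 rose and 3 fell. Each count is 37.5% of those tested, near the 31.6% higher and 30.3% lower of all tested genes. PAX2, a factor of the midbrain-hindbrain boundary, had 0.624, 0.431 and 0.536 CPM in ESC and 16.99, 20.6 and 20.8 CPM in NPC (log2 fold change 5.09 ± 0.39 SE, edgeR adjusted p = 1.26e-06). IRX3, an Iroquois factor, had 2.50, 0.861 and 0.536 CPM in ESC and 10.6, 15.6 and 18.3 CPM in NPC (log2 fold change 3.49 ± 0.47 SE, edgeR adjusted p = 6.75e-05). FGF8, the boundary ligand, had 17.8, 39.2 and 31.4 CPM in ESC and 62.5, 64.97 and 70.4 CPM in NPC (log2 fold change 1.17 ± 0.26 SE, edgeR adjusted p = 0.00203). All 3 were higher in every NPC library. FGF17, its relative, had 35.3, 44.8 and 40.5 CPM in ESC and 9.30, 13.4 and 13.4 CPM in NPC (log2 fold change -1.73 ± 0.23 SE, edgeR adjusted p = 5.81e-05). FOXA2, a factor of floor plate and endoderm, had 11.9, 9.91 and 13.1 CPM in ESC and 0, 0 and 0.226 CPM in NPC (count ratio 132, 95% counting interval 23.2 to 5267, lower in NPC, edgeR adjusted p = 5.39e-06). PAX2 and IRX3 rose from near 0, FGF8 rose from a level already present in ESC, and FGF17 and FOXA2 fell. Without ESC replicate 1 the log2 fold change of IRX3 was 4.42.

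Of 11 tested neuron genes 3 rose and 5 fell. These counts are 27.3% higher and 45.5% lower, against 31.6% and 30.3% of all tested genes. MAP2, a dendritic microtubule protein, had 9.99, 5.17 and 5.36 CPM in ESC and 404, 466 and 415 CPM in NPC (log2 fold change 5.95 ± 0.30 SE, edgeR adjusted p = 1.8e-07). GAP43, a growth cone protein, had 19.04, 21.5 and 28.9 CPM in ESC and 76.6, 58.003 and 73.3 CPM in NPC (log2 fold change 1.57 ± 0.22 SE, edgeR adjusted p = 9.59e-05). TUBB3, a neuronal tubulin, had 131, 65.5 and 109.9 CPM in ESC and 20.5, 25.1 and 23.8 CPM in NPC (log2 fold change -2.14 ± 0.26 SE, edgeR adjusted p = 3.08e-05). The dendritic and growth cone genes were higher and the tubulin lower. CRMP1, a collapsin response mediator, had 201, 159 and 212 CPM in ESC and 28.8, 35.1 and 45.04 CPM in NPC (log2 fold change -2.39 ± 0.23 SE, edgeR adjusted p = 5.16e-06). CRMP1 fell with TUBB3, so the neuron list did not move one way; 6 rose without the filter on low counts.

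Markers of the other cell types a culture might hold gave the following. Of the mesoderm and endoderm genes, 0 of 14 tested members rose, 9 fell and 5 did not pass the threshold, with a median log2 fold change of -3.79; 2 rose when ESC replicate 2 was left out. Their summed level was 1298 to 1741 CPM in ESC and 215 to 254 CPM in NPC, most of it CER1, MIXL1 and KDR. KDR, the VEGF receptor, had 537, 718 and 555 CPM in ESC and 201, 169.8 and 172 CPM in NPC (log2 fold change -1.74 ± 0.21 SE, edgeR adjusted p = 3.41e-05). KDR was lower in every NPC library but remained well detected there. Within the list APLNR, FGF4 and MIXL1 resembled CER1 most over the 6 libraries (Pearson r = 0.994, 0.993 and 0.984), which likewise rests on the gap between the 2 states. In the total RNA of ESC, CER1 averaged 1.91 CPM and MIXL1 6.03 CPM, against 531 and 172 CPM on ribosomes. CPM was scaled within each assay, so a ratio of these levels does not measure the load of ribosomes. The change of CER1 on ribosomes differed from that in RNA by -3.91 on the log2 scale (edgeR interaction test, adjusted p = 0.00677). In the total RNA of NPC CER1 averaged 0.0754 CPM, a level near the floor that limits how large a fall in RNA could be measured.

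Of the genes of trophoblast, amnion and surface ectoderm, 5 of 10 tested members rose, 2 fell and 3 did not pass the threshold, with a median log2 fold change of 0.52; 4 fell when ESC replicate 2 was left out. GRHL3, a grainyhead factor of surface ectoderm, had 3.43, 2.58 and 2.95 CPM in ESC and 174, 176 and 179.7 CPM in NPC (log2 fold change 5.85 ± 0.24 SE, edgeR adjusted p = 1.8e-07). GATA2, a GATA factor, had 0.936, 0.431 and 0.536 CPM in ESC and 9.30, 7.25 and 6.11 CPM in NPC (log2 fold change 3.46 ± 0.49 SE, edgeR adjusted p = 9.72e-05). KRT7, a simple-epithelium keratin, had 41.2, 20.2 and 27.9 CPM in ESC and 12.5, 14.8 and 11.995 CPM in NPC (log2 fold change -1.19 ± 0.28 SE, edgeR adjusted p = 0.00275). GRHL3 and GATA2 went up in every NPC library and KRT7 down. KRT8, the keratin of the list with the most counts, had 414, 204 and 438 CPM in ESC and 335, 353 and 343 CPM in NPC (log2 fold change -0.04 ± 0.27 SE, edgeR adjusted p = 0.917). KRT8 overlapped between states, and the part of these markers in other results was not tested. ESC replicate 2 stood -0.64 (log2, median) from the other ESC libraries in this list and was the lowest for KRT8, which passed without it (log2 -0.32, edgeR adjusted p = 0.0346). Their summed level was 608 to 1066 CPM in ESC and 1229.5 to 1252 CPM in NPC, and 5 of the 23 listed genes had no count in any ESC library.

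Signalling genes were ordered by role. In the Nodal and TGF-beta list, 6 of 28 tested members rose, 14 fell and 8 did not pass the threshold, with a median log2 fold change of -0.66. The ligands NODAL and GDF3 and the antagonists LEFTY1 and CER1 fell as given above. TDGF1, the Nodal co-receptor, had 34.02, 63.3 and 49.6 CPM in ESC and 0.962, 0.558 and 0.453 CPM in NPC (log2 fold change -6.19 ± 0.40 SE, edgeR adjusted p = 5.02e-07). FOXH1, the DNA-binding partner of SMAD2 at Nodal targets, had 77.4, 144 and 84.9 CPM in ESC and 4.49, 4.74 and 5.21 CPM in NPC (log2 fold change -4.38 ± 0.30 SE, edgeR adjusted p = 6.71e-07). FURIN, a convertase that cleaves TGF-beta family precursors, had 10.9, 21.5 and 13.1 CPM in ESC and 54.2, 53.3 and 50.7 CPM in NPC (log2 fold change 1.82 ± 0.25 SE, edgeR adjusted p = 7.98e-05). The co-receptor and the partner of SMAD2 fell with the ligands. FURIN was higher in every NPC library. ESC replicate 2 stood 0.57 above the other ESC libraries in the list's median.

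In the BMP list, 10 of 24 tested members rose, 8 fell and 6 did not pass the threshold, with a median log2 fold change of 0.28. That is 41.7% higher and 33.3% lower, against 31.6% and 30.3% of all tested genes. ID1, a BMP-induced inhibitor of bHLH factors, had 242, 304 and 273 CPM in ESC and 51.9, 54.9 and 46.6 CPM in NPC (log2 fold change -2.41 ± 0.20 SE, edgeR adjusted p = 1.9e-06). SMAD7, an inhibitory SMAD, had 12.8, 10.3 and 15.5 CPM in ESC and 3.85, 3.35 and 0.679 CPM in NPC (log2 fold change -2.37 ± 0.46 SE, edgeR adjusted p = 0.000894). ID3, a relative of ID1 and the member with the most counts, had 276, 376 and 261 CPM in ESC and 289, 328 and 324 CPM in NPC (log2 fold change 0.04 ± 0.21 SE, edgeR adjusted p = 0.866). ID1 was several-fold lower in NPC while ID3 gave overlapping values. The number of BMP genes that fell was 5 without NPC replicate 3.

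In the WNT list, 16 of 37 tested members rose, 6 fell and 15 did not pass the threshold, with a median log2 fold change of 0.45. WNT3, a ligand of the primitive streak, had 34.6, 79.7 and 31.9 CPM in ESC and 1.92, 3.90 and 2.94 CPM in NPC (log2 fold change -4.01 ± 0.43 SE, edgeR adjusted p = 1.15e-05). WLS, the carrier that brings WNT ligands to the cell surface, had 26.5, 36.2 and 22.2 CPM in ESC and 738, 572 and 656 CPM in NPC (log2 fold change 4.54 ± 0.26 SE, edgeR adjusted p = 2.97e-07). DKK1, a secreted antagonist, had 15.9, 32.3 and 17.1 CPM in ESC and 5.77, 4.18 and 1.36 CPM in NPC (log2 fold change -2.56 ± 0.45 SE, edgeR adjusted p = 0.000413). WLS rose in all NPC libraries and WNT7B from almost none, whereas WNT3 and DKK1 fell. ESC replicate 2 was the highest ESC library for WNT3, DKK1 and WLS and stood 0.58 above the others in the list's median.

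In the Notch list, 17 of 30 tested members rose, 8 fell and 5 did not pass the threshold, with a median log2 fold change of 1.23. DLK1, a non-canonical ligand, had 12.2, 10.3 and 5.63 CPM in ESC and 361, 279.7 and 342 CPM in NPC (log2 fold change 5.14 ± 0.30 SE, edgeR adjusted p = 2.97e-07). NOTCH1, a receptor and the member with the most counts, had 176, 259.7 and 185 CPM in ESC and 656, 594 and 659.97 CPM in NPC (log2 fold change 1.62 ± 0.22 SE, edgeR adjusted p = 7.37e-05). HES5, a Notch effector of neural stem cells, had 0.624, 0.431 and 0 CPM in ESC and 9.62, 14.2 and 11.1 CPM in NPC (count ratio 36.1, 95% counting interval 12.1 to 177, higher in NPC, edgeR adjusted p = 2.21e-05). All 3 were higher in every NPC library. HES3, another HES factor, had 259.6, 486 and 288 CPM in ESC and 27.6, 22.03 and 23.1 CPM in NPC (log2 fold change -3.83 ± 0.28 SE, edgeR adjusted p = 9.97e-07). HES3, in contrast, fell in every NPC library. The fitted log2 fold change of HES5 was 5.84 without ESC replicate 1 and 4.32 without ESC replicate 3.

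In the FGF and ERK feedback list, 10 of 29 tested members rose, 14 fell and 5 did not pass the threshold, with a median log2 fold change of -0.30. The share higher, 34.5%, was near the 31.6% of all tested genes, and 48.3% were lower against 30.3%. FGF4, the autocrine ligand of stem cells, had 9.99, 21.96 and 12.3 CPM in ESC and 0.321, 0.279 and 0 CPM in NPC (count ratio 77.5, 95% counting interval 21.02 to 647, lower in NPC, edgeR adjusted p = 1.18e-05). FGFR3, a receptor of neural progenitors, had 17.5, 17.2 and 12.9 CPM in ESC and 204, 208 and 229 CPM in NPC (log2 fold change 3.76 ± 0.22 SE, edgeR adjusted p = 2.97e-07). FGFR1, the receptor with the most counts, had 219, 263 and 208 CPM in ESC and 505, 496 and 501 CPM in NPC (log2 fold change 1.12 ± 0.20 SE, edgeR adjusted p = 0.000455). The ligand fell and both receptors rose. ETV4, an ETS factor induced by FGF, had 516, 405 and 427 CPM in ESC and 52.6, 41.6 and 52.1 CPM in NPC (log2 fold change -3.20 ± 0.22 SE, edgeR adjusted p = 6.68e-07). EGR1, an immediate early factor, had 6.55, 2.58 and 5.36 CPM in ESC and 58.98, 80.03 and 81.7 CPM in NPC (log2 fold change 3.87 ± 0.30 SE, edgeR adjusted p = 1.2e-06). ETV4 fell and EGR1 rose in every NPC library.

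Among genes of cell contact and matrix, the junction and cadherin list had 12 members that rose and 19 that fell of 37 tested, median log2 -0.91. The 32.4% higher is near the 31.6% of all tested genes, and 51.4% were lower against 30.3%. CDH1, E-cadherin, had 1085, 1217 and 1182 CPM in ESC and 402, 353 and 387 CPM in NPC (log2 fold change -1.61 ± 0.21 SE, edgeR adjusted p = 4.81e-05). CDH2, N-cadherin, had 115, 162 and 123.3 CPM in ESC and 319.9, 264 and 262 CPM in NPC (log2 fold change 1.08 ± 0.21 SE, edgeR adjusted p = 0.000862). CDH11, a mesenchymal cadherin, had 12.2, 17.7 and 11.8 CPM in ESC and 155, 116 and 148 CPM in NPC (log2 fold change 3.35 ± 0.24 SE, edgeR adjusted p = 8.18e-07). E-cadherin was lower in every NPC library, with N-cadherin and CDH11 higher; the call of CDH2 was lost with gene span offsets (edgeR adjusted p = 0.113). CLDN6, the claudin with the most counts here, had 1289, 2086 and 1376 CPM in ESC and 539, 470.4 and 499.95 CPM in NPC (log2 fold change -1.65 ± 0.25 SE, edgeR adjusted p = 0.000153). CLDN4, a tight-junction claudin, had 47.4, 55.1 and 41.3 CPM in ESC and 245, 241 and 276 CPM in NPC (log2 fold change 2.41 ± 0.20 SE, edgeR adjusted p = 2.15e-06). ESRP2, an epithelial splicing regulator, had 40.9, 32.7 and 47.2 CPM in ESC and 4.81, 7.53 and 8.15 CPM in NPC (log2 fold change -2.54 ± 0.26 SE, edgeR adjusted p = 9.63e-06). CLDN4 rose while CLDN6 and ESRP2 fell. Over this list the deviation of ESC replicate 2 from the other ESC libraries was 0.51 in the median.

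In the matrix and integrin list, 20 of 54 tested members rose, 13 fell and 21 did not pass the threshold, with a median log2 fold change of 0.25. That is 37.0% higher and 24.1% lower, not far from the 31.6% and 30.3% of all tested genes. COL2A1, type II collagen, had 14.98, 16.4 and 13.4 CPM in ESC and 414, 408 and 408 CPM in NPC (log2 fold change 4.78 ± 0.22 SE, edgeR adjusted p = 1.8e-07). TNC, tenascin C, had 36.5, 25.8 and 31.6 CPM in ESC and 457, 381 and 412 CPM in NPC (log2 fold change 3.73 ± 0.23 SE, edgeR adjusted p = 3.24e-07). LAMC1, the laminin gamma-1 chain and the member with the most counts, had 1069, 1648 and 1077 CPM in ESC and 738, 621 and 626 CPM in NPC (log2 fold change -0.93 ± 0.24 SE, edgeR adjusted p = 0.00581). The collagen and tenascin were higher in all NPC libraries, and LAMC1 was lower there. Over this list ESC replicate 2 stood apart by 0.61.

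Axon guidance genes, which steer growth cones and also pattern the early neural tube, came next. Of these, 30 of 43 tested members rose, 4 fell and 9 did not pass the threshold, with a median log2 fold change of 1.41. EPHA4, an ephrin receptor, had 81.1, 88.3 and 73.96 CPM in ESC and 828, 653 and 715 CPM in NPC (log2 fold change 3.17 ± 0.22 SE, edgeR adjusted p = 7.02e-07). SLIT3, a repulsive ligand, had 5.31, 9.04 and 3.48 CPM in ESC and 66.99, 49.9 and 54.5 CPM in NPC (log2 fold change 3.32 ± 0.31 SE, edgeR adjusted p = 4.17e-06). EPHA1, an ephrin receptor of epithelia, had 447, 932 and 532 CPM in ESC and 56.4, 46.8 and 54.5 CPM in NPC (log2 fold change -3.60 ± 0.30 SE, edgeR adjusted p = 2.11e-06). The 2 ephrin receptors thus went opposite ways. EFNA4, an ephrin, had 34.95, 61.6 and 28.7 CPM in ESC and 14.4, 12.3 and 17.4 CPM in NPC (log2 fold change -1.48 ± 0.30 SE, edgeR adjusted p = 0.00109). ROBO2, a SLIT receptor and the member with the most counts, had 1763, 3153 and 2536 CPM in ESC and 3122, 2163 and 1717 CPM in NPC (log2 fold change -0.09 ± 0.30 SE, edgeR adjusted p = 0.811). EPHA4 and SLIT3 were higher in every NPC library, and EPHA1 and EFNA4 lower, whereas ROBO2 gave overlapping values in the 2 states. On total RNA ROBO2 averaged 20.5 CPM in ESC, a level scaled within that assay and so not directly comparable with those on ribosomes. The median deviation of ESC replicate 2 over the list was 0.53; without that library 31 members rose and 4 fell, and with gene span offsets 9 fell.

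Golgins, centrosome and cilium genes, motor proteins and chromatin regulators formed the next lists. Of the golgins, tethers of the Golgi, 16 of 17 tested members rose, 0 fell and 1 did not pass the threshold, with a median log2 fold change of 1.32, against 31.6% of all genes higher. GOLGA4 had 26.5, 14.2 and 23.3 CPM in ESC and 316, 266 and 250.1 CPM in NPC (log2 fold change 3.68 ± 0.26 SE, edgeR adjusted p = 7.56e-07). GOLGA3 had 29.3, 26.7 and 24.9 CPM in ESC and 199.4, 209 and 207 CPM in NPC (log2 fold change 2.92 ± 0.19 SE, edgeR adjusted p = 5.55e-07). GOLIM4, the member with the most counts, had 138, 129.6 and 119.5 CPM in ESC and 333, 271 and 280.2 CPM in NPC (log2 fold change 1.19 ± 0.19 SE, edgeR adjusted p = 0.000247). Golgin values did not overlap between states in 16 of 17 members (67.1% of all genes). The change differed from that in RNA for 14 of 17 members (background 42.3%). A single golgin fell when ESC replicate 2 was left out.

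Of the centrosome and cilium genes, 29 of 52 tested members rose, 6 fell and 17 did not pass the threshold, with a median log2 fold change of 0.77 (2 fell without NPC replicate 1). CEP290, a ciliary gate protein, had 3.74, 1.72 and 3.48 CPM in ESC and 38.1, 36.8 and 29.2 CPM in NPC (log2 fold change 3.47 ± 0.30 SE, edgeR adjusted p = 2.56e-06). CDK5RAP2, a centrosome protein linked to microcephaly, had 73.3, 39.6 and 64.8 CPM in ESC and 311, 282 and 313 CPM in NPC (log2 fold change 2.34 ± 0.24 SE, edgeR adjusted p = 9.83e-06). CCDC88A, girdin, had 22.5, 12.9 and 12.6 CPM in ESC and 127, 136 and 130.1 CPM in NPC (log2 fold change 3.03 ± 0.25 SE, edgeR adjusted p = 1.88e-06). All 3 were several times higher in NPC. ARL3, a small GTPase of cilia, had 85.2, 126 and 76.4 CPM in ESC and 45.2, 38.5 and 44.8 CPM in NPC (log2 fold change -1.16 ± 0.23 SE, edgeR adjusted p = 0.000867). ARL3 fell while CEP290, CDK5RAP2 and CCDC88A rose. Over the centrosome list ESC replicate 2 deviated by -0.54 from the other ESC libraries.

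Of the kinesins and dyneins, 23 of 45 tested members rose, 6 fell and 16 did not pass the threshold, with a median log2 fold change of 0.70, and 26 rose and 10 fell without ESC replicate 2, whose median over the list stood -0.65 from the other ESC libraries. KIF26B, an atypical kinesin, had 1.87, 0.861 and 1.88 CPM in ESC and 30.4, 32.3 and 37.6 CPM in NPC (log2 fold change 4.35 ± 0.32 SE, edgeR adjusted p = 8.69e-07). DYNC1H1, the cytoplasmic dynein heavy chain and the member with the most counts, had 255, 111 and 208 CPM in ESC and 690.1, 892 and 803 CPM in NPC (log2 fold change 2.05 ± 0.30 SE, edgeR adjusted p = 0.000102). DYNC1LI1, a dynein light intermediate chain, had 109.8, 71.9 and 102 CPM in ESC and 40.7, 44.1 and 35.1 CPM in NPC (log2 fold change -1.25 ± 0.22 SE, edgeR adjusted p = 0.000378). DYNC1H1 and DYNC1LI1 thus went opposite ways.

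Of the chromatin regulators, 58 of 80 tested members rose, 4 fell and 18 did not pass the threshold, with a median log2 fold change of 1.44. KDM6B, a histone H3 lysine 27 demethylase, had 9.36, 9.48 and 10.99 CPM in ESC and 92.95, 113 and 122 CPM in NPC (log2 fold change 3.45 ± 0.22 SE, edgeR adjusted p = 4.61e-07). TET2, a 5-methylcytosine oxidase, had 0, 0.861 and 0.804 CPM in ESC and 13.8, 9.20 and 8.83 CPM in NPC (log2 fold change 4.19 ± 0.58 SE, edgeR adjusted p = 7.48e-05). CHD7, a remodeller of neural crest and progenitors, had 154, 50.8 and 115 CPM in ESC and 522, 588 and 561 CPM in NPC (log2 fold change 2.38 ± 0.33 SE, edgeR adjusted p = 8.58e-05). Without ESC replicate 1 the log2 fold change of TET2 was 3.61. KMT2D, a histone methyltransferase, had 88.3, 45.2 and 62.4 CPM in ESC and 149, 198.5 and 182 CPM in NPC (log2 fold change 1.43 ± 0.25 SE, edgeR adjusted p = 0.000414). SMARCA4, the BRG1 ATPase and the member with the most counts, had 941, 429 and 785 CPM in ESC and 2275, 2147 and 2464 CPM in NPC (log2 fold change 1.68 ± 0.30 SE, edgeR adjusted p = 0.000454). DNMT3B, the de novo DNA methyltransferase of pluripotent cells, had 1606, 577 and 1491 CPM in ESC and 322, 345 and 374 CPM in NPC (log2 fold change -1.82 ± 0.34 SE, edgeR adjusted p = 0.000659). DNMT3B and SMARCA2 fell; the other 5 named here rose. Over this list ESC replicate 2 deviated by -0.68, and without it 60 chromatin genes rose and 6 fell. The chromatin change differed from that in RNA for 53 of 80 genes, against 42.3% of all genes fitted in both assays.

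**Figure D2:**
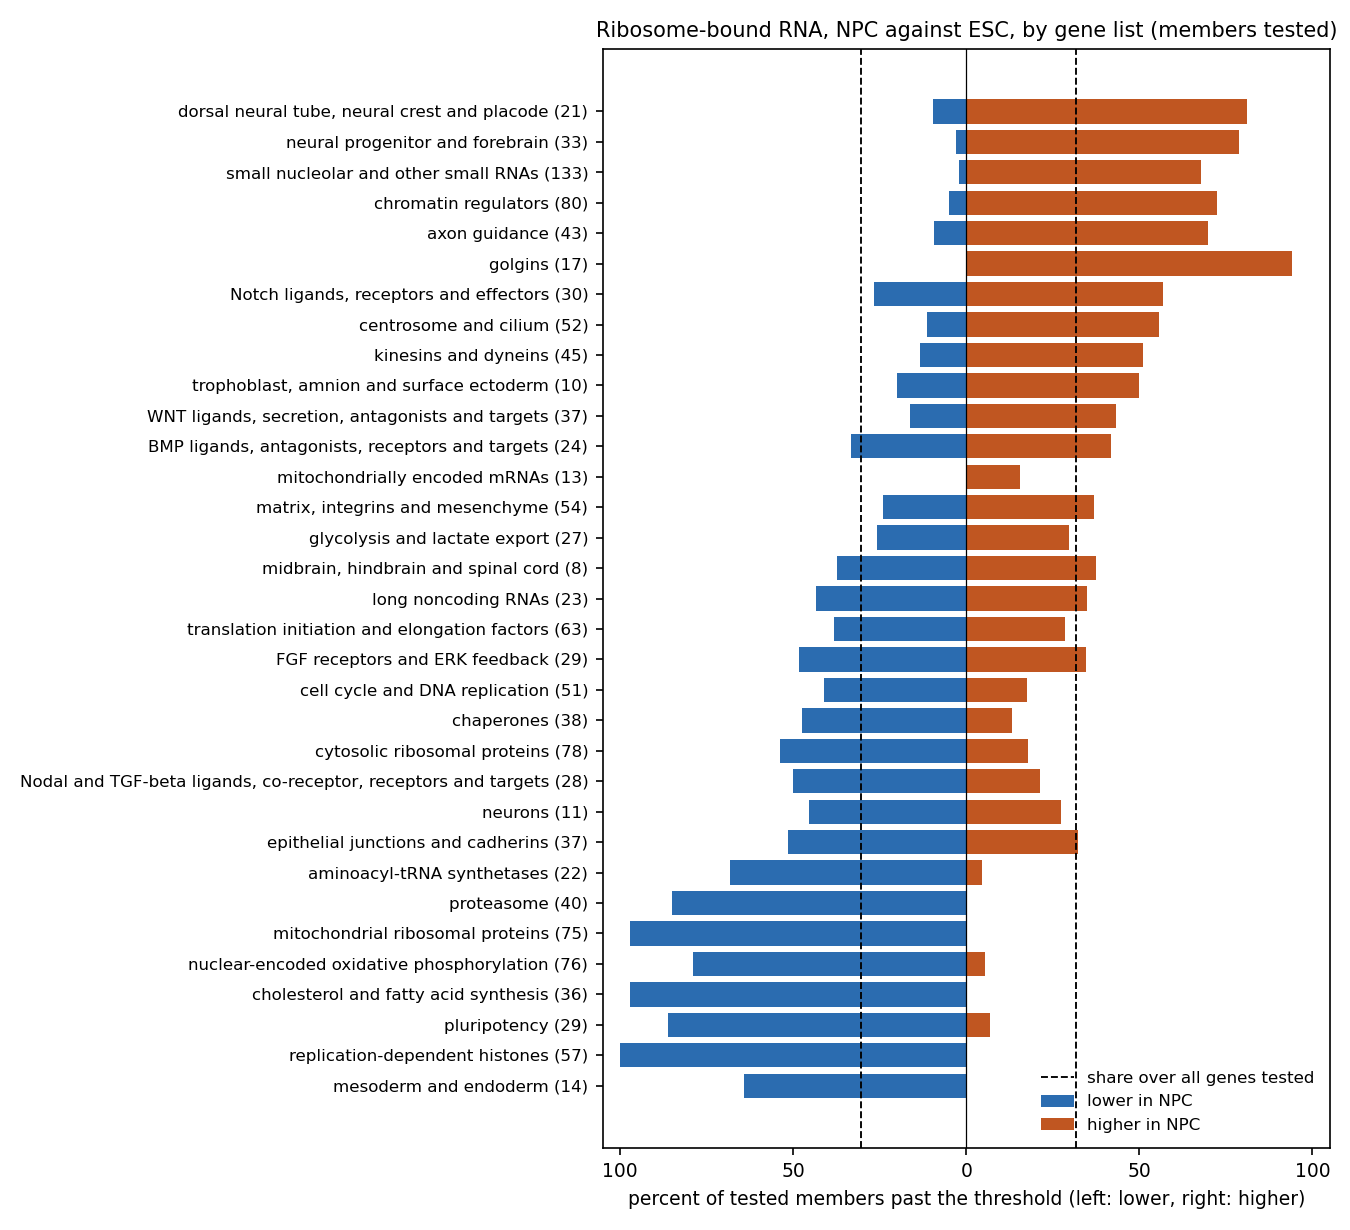
Percent of tested members of each gene list that were lower (blue, to the left) or higher (orange, to the right) in NPC on ribosomes by edgeR at an adjusted p of 0.05, with the number tested in brackets; dashed lines mark 30.3% lower and 31.6% higher over all genes. The largest share higher is that of golgins (94.1%) and the largest share lower that of histones (100%).

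All 57 tested replication-dependent histone genes fell, with log2 fold changes from -5.30 to -1.67 and a median of -3.54 (30.3% of all genes fell). HIST1H2AB, a core histone H2A gene, had 265, 345 and 259.9 CPM in ESC and 6.73, 5.30 and 9.73 CPM in NPC (log2 fold change -5.30 ± 0.28 SE, edgeR adjusted p = 2.18e-07). HIST1H4C, a core histone H4 gene, had 959.6, 1973 and 1095 CPM in ESC and 251, 250.1 and 226 CPM in NPC (log2 fold change -2.47 ± 0.29 SE, edgeR adjusted p = 2.59e-05). HIST1H1E, a linker histone and the member with the most counts, had 2212, 1568 and 2080.1 CPM in ESC and 393, 395 and 467 CPM in NPC (log2 fold change -2.22 ± 0.24 SE, edgeR adjusted p = 1.3e-05). No tested histone gene overlapped between states, where 67.1% of all tested genes were without overlap. As a share, histones held 2.80% ± 0.346 of counts in ESC and 0.269% ± 0.00890 in NPC (SD, n = 3 each). The change on ribosomes differed from that in RNA for 54 of 55 genes (42.3% of all genes), the RNA median being -0.60. The library preparation is described only as standard, and the sources used here do not say how mRNAs without a poly(A) tail entered either assay; near-identical histone genes can share reads, and 1 tested member is a pseudogene in RefSeq.

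Promoters of 2 members are printed to show short motifs that many members share. Whether these motifs bear on the fall was not tested. Each run holds the 120 bases before the start, from RefSeq on GRCh38.p14, in lower case, with capitals on either strand for the CCAAT box, for the letters TATAAA of a TATA box and for the octamer ATTTGCAT.
HIST1H2AB (chr6:26033619-26033738, minus strand): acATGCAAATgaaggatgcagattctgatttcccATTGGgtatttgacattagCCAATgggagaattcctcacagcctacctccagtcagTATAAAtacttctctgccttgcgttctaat
HIST1H2BB (chr6:26043714-26043833, minus strand): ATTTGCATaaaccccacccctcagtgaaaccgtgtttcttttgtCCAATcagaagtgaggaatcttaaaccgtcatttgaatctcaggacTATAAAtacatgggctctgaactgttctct
HIST1H2BB, a core histone H2B gene, had 4.37, 6.03 and 5.36 CPM in ESC and 0, 1.67 and 0 CPM in NPC (log2 fold change -3.18 ± 0.78 SE, edgeR adjusted p = 0.00379). The counts of HIST1H2BB in NPC came from replicate 2 alone, and without NPC replicate 3 its log2 fold change was -2.49; without NPC replicate 2 no NPC count is left and the fitted value was -7.13. In the 250 bases before the start, searched on both strands, CCAAT was present in 41 of the 46 tested members with a RefSeq promoter (89.1%) against 32.0% of 35116 promoters, TATAAA in 65.2% against 10.7%, and ATTTGCAT in 37.0% against 1.63%. A match describes the letters in that window only.

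The translation machinery did not move as a unit. Of the cytosolic ribosomal proteins, 14 of 78 tested members rose, 42 fell and 22 did not pass the threshold, with a median log2 fold change of -0.64. RPL3, a large-subunit protein, had 588, 497 and 544 CPM in ESC and 2958, 2589.8 and 2995 CPM in NPC (log2 fold change 2.39 ± 0.23 SE, edgeR adjusted p = 6.37e-06). RPL7A, a large-subunit protein that hosts small nucleolar RNAs, had 96.1, 112 and 126 CPM in ESC and 471, 345 and 414 CPM in NPC (log2 fold change 1.88 ± 0.21 SE, edgeR adjusted p = 1.9e-05). Both rose in every NPC library, and the number that rose was 22 with gene span offsets. RPL17, a large-subunit protein, had 12.5, 20.2 and 14.2 CPM in ESC and 3.21, 3.07 and 1.13 CPM in NPC (log2 fold change -2.68 ± 0.40 SE, edgeR adjusted p = 0.000131). RPL17 was lower in every NPC library. The summed share of these genes was 2.59% ± 0.281 of counts in ESC and 2.64% ± 0.0874 in NPC (SD, n = 3 each), and reads can be split with processed pseudogenes.

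Of the initiation and elongation factors, 18 of 63 tested members rose, 24 fell and 21 did not pass the threshold, with a median log2 fold change of -0.26. That is 28.6% higher and 38.1% lower, not far from the 31.6% and 30.3% of all tested genes. EIF4G3, a scaffold of cap-dependent initiation, had 57.7, 33.2 and 53.1 CPM in ESC and 266, 258 and 240.1 CPM in NPC (log2 fold change 2.40 ± 0.23 SE, edgeR adjusted p = 6.16e-06). EIF4EBP1, the repressor of eIF4E under mTOR, had 58.7, 103 and 57.3 CPM in ESC and 8.33, 5.58 and 9.73 CPM in NPC (log2 fold change -3.19 ± 0.31 SE, edgeR adjusted p = 5.52e-06). EEF1A2, the neuronal and muscle form of eEF1A, had 39.3, 28.4 and 30.01 CPM in ESC and 8.33, 11.4 and 9.05 CPM in NPC (log2 fold change -1.76 ± 0.24 SE, edgeR adjusted p = 7.51e-05). Of the tested members 4 are pseudogenes in RefSeq. EIF4G3 rose with EEF2, and EIF4EBP1 and EEF1A2 fell.

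Of the tRNA synthetases, 1 of 22 tested members rose, 15 fell and 6 did not pass the threshold, with a median log2 fold change of -1.07. TARS, the threonine enzyme, had 742, 327 and 646 CPM in ESC and 143, 161 and 145 CPM in NPC (log2 fold change -1.93 ± 0.29 SE, edgeR adjusted p = 0.000132). FARSB, a subunit of the phenylalanine enzyme, had 174, 61.2 and 152 CPM in ESC and 26.9, 30.4 and 30.1 CPM in NPC (log2 fold change -2.15 ± 0.33 SE, edgeR adjusted p = 0.00016). NARS, the asparagine enzyme and the member with the most counts, had 829.8, 439 and 782 CPM in ESC and 219.9, 240.4 and 243 CPM in NPC (log2 fold change -1.55 ± 0.26 SE, edgeR adjusted p = 0.000308). All 3 fell in every NPC library. QARS, the glutamine enzyme and the single member that rose, had 326, 206 and 314 CPM in ESC and 431, 435 and 449 CPM in NPC (log2 fold change 0.64 ± 0.22 SE, edgeR adjusted p = 0.0262). QARS lost its call without any of ESC replicate 3 and NPC replicates 1 to 3 (adjusted p 0.0508 to 0.0847 by edgeR). Over the synthetases ESC replicate 2 deviated by -0.65 in the median.

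Nuclear genes of the mitochondrion were lower as groups. Of the mitochondrial ribosomal proteins, 0 of 75 tested members rose, 73 fell and 2 did not pass the threshold, with a median log2 fold change of -1.30. MRPL15 had 97.4, 87.4 and 110.1 CPM in ESC and 12.2, 15.9 and 16.5 CPM in NPC (log2 fold change -2.72 ± 0.21 SE, edgeR adjusted p = 1.4e-06). MRPS34, the member with the most counts, had 349, 423 and 386 CPM in ESC and 164, 171 and 156 CPM in NPC (log2 fold change -1.24 ± 0.19 SE, edgeR adjusted p = 0.000179). Both were lower in every NPC library. Of the nuclear genes of oxidative phosphorylation, 1 of whose tested members is a pseudogene in RefSeq, 4 of 76 tested members rose, 60 fell and 12 did not pass the threshold, with a median log2 fold change of -1.35. NDUFA8, a complex I subunit, had 484, 506 and 511 CPM in ESC and 65.1, 74.2 and 67.9 CPM in NPC (log2 fold change -2.86 ± 0.20 SE, edgeR adjusted p = 7.56e-07). ATP5MG, an ATP synthase subunit, had 55.9, 87.9 and 68.3 CPM in ESC and 9.94, 16.2 and 9.73 CPM in NPC (log2 fold change -2.56 ± 0.27 SE, edgeR adjusted p = 9.93e-06). NDUFV2, another complex I subunit, had 0.624, 0.431 and 0.268 CPM in ESC and 8.65, 4.74 and 3.17 CPM in NPC (log2 fold change 3.53 ± 0.66 SE, edgeR adjusted p = 0.000637). NDUFV2 stayed under 10 CPM in both states. ATP5MF, an ATP synthase subunit, had 38.1, 52.5 and 30.3 CPM in ESC and 97.8, 71.7 and 97.3 CPM in NPC (log2 fold change 1.15 ± 0.24 SE, edgeR adjusted p = 0.0013). NDUFV2 and ATP5MF are among the 4 that rose.

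Of the 13 mRNAs made inside the mitochondrion, 2 rose with all libraries, 9 without ESC replicate 2 and 1 without ESC replicate 3, NPC replicate 1 or NPC replicate 3 or with the replicate block. MT-CYB, cytochrome b and the member with the most counts, had 1213, 2039.7 and 1044 CPM in ESC and 2332, 1129 and 1905 CPM in NPC (log2 fold change 0.32 ± 0.33 SE, edgeR adjusted p = 0.415). MT-ND2, a complex I subunit, had 19.04, 22.8 and 16.9 CPM in ESC and 49.04, 38.2 and 41.6 CPM in NPC (log2 fold change 1.14 ± 0.21 SE, edgeR adjusted p = 0.000674). MT-ND1, a complex I subunit, had 248.7, 368 and 205 CPM in ESC and 599, 356 and 519 CPM in NPC (log2 fold change 0.84 ± 0.27 SE, edgeR adjusted p = 0.0179). MT-CYB overlapped between states, with ESC replicate 2 higher than NPC replicate 2; without ESC replicate 2 its log2 fold change was 0.65 (edgeR adjusted p = 0.00383). MT-ND1 lost its call without ESC replicate 3 or NPC replicate 1 or 3. Its median deviation over the 13 mRNAs, ESC replicate 2 against the other ESC libraries, was 0.70.

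The sterol and fatty acid genes were lower throughout, with a single member short of the threshold. SCD, given above among the largest losses, belongs here. Of this list, 0 of 36 tested members rose, 35 fell and 1 did not pass the threshold, with a median log2 fold change of -2.04. The summed level was 13957 to 14444 CPM in ESC and 3064 to 3177 CPM in NPC, so all ESC libraries lay far above all NPC libraries. In RNA 31 of 36 fell, median -1.29, and the change differed between assays for 16 of 36, near the 42.3% of all genes.

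In the glycolysis list, 8 of 27 tested members rose, 7 fell and 12 did not pass the threshold, with a median log2 fold change of 0.13. That is 29.6% higher and 25.9% lower, near the 31.6% and 30.3% of all tested genes. Without ESC replicate 2 the number lower was 11. The number higher was 4 without ESC replicate 3, NPC replicate 2 or NPC replicate 3, and 5 with the replicate block. VEGFA, a hypoxia-induced ligand that the list holds, had 10.3, 10.3 and 12.6 CPM in ESC and 42.95, 44.6 and 46.4 CPM in NPC (log2 fold change 2.000 ± 0.21 SE, edgeR adjusted p = 1.08e-05). PFKFB4, a regulator of glycolytic flux, had 30.6, 31.9 and 28.4 CPM in ESC and 93.3, 87.8 and 86.7 CPM in NPC (log2 fold change 1.56 ± 0.18 SE, edgeR adjusted p = 2.34e-05). LDHB, a lactate dehydrogenase subunit, had 1402, 974 and 1476 CPM in ESC and 394, 438 and 429.6 CPM in NPC (log2 fold change -1.61 ± 0.24 SE, edgeR adjusted p = 0.000116). The ligand and the regulator rose and the dehydrogenase fell. ALDOC, an aldolase, had 276, 194 and 316 CPM in ESC and 38.5, 46.6 and 41.6 CPM in NPC (log2 fold change -2.63 ± 0.23 SE, edgeR adjusted p = 3e-06). ENO1, enolase and the member with the most counts, had 3427, 1635 and 3217 CPM in ESC and 2250.4, 2868 and 2624 CPM in NPC (log2 fold change -0.10 ± 0.30 SE, edgeR adjusted p = 0.796). ALDOC was lower in all NPC libraries too, while ENO1 overlapped. Its low ESC library was replicate 2, without which ENO1 passed at log2 -0.38 (edgeR adjusted p = 0.0487).

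Protein turnover and folding followed. Of the proteasome genes, 0 of 40 tested members rose, 34 fell and 6 did not pass the threshold, with a median log2 fold change of -1.18. PSMA4, an alpha subunit of the core, had 396, 379 and 388 CPM in ESC and 73.4, 85.9 and 82.2 CPM in NPC (log2 fold change -2.27 ± 0.19 SE, edgeR adjusted p = 2.39e-06). PSMB1, a beta subunit and the member with the most counts, had 981, 849.7 and 1018 CPM in ESC and 358, 413 and 409.9 CPM in NPC (log2 fold change -1.27 ± 0.21 SE, edgeR adjusted p = 0.000271). PSMB8, an immunoproteasome subunit, had 12.2, 10.8 and 16.1 CPM in ESC and 0.641, 0.837 and 3.17 CPM in NPC (log2 fold change -2.95 ± 0.48 SE, edgeR adjusted p = 0.000236). All 3 were lower in every NPC library; without NPC replicate 3 the fall of PSMB8 was -4.05.

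Of the chaperones, 5 of 38 tested members rose, 18 fell and 15 did not pass the threshold, with a median log2 fold change of -0.53. HSP90AA1, the inducible cytosolic HSP90, had 1196, 452 and 1069 CPM in ESC and 2350.4, 2415 and 1893 CPM in NPC (log2 fold change 1.29 ± 0.34 SE, edgeR adjusted p = 0.0055). HSPA5, the ER chaperone BiP and the member with the most counts, had 1776, 1969.5 and 1807 CPM in ESC and 2407, 1927 and 2212 CPM in NPC (log2 fold change 0.24 ± 0.23 SE, edgeR adjusted p = 0.384). HSPB1, a small heat shock protein, had 353, 399.7 and 346 CPM in ESC and 69.6, 81.1 and 93.9 CPM in NPC (log2 fold change -2.17 ± 0.21 SE, edgeR adjusted p = 5.21e-06). HSPB1 fell and HSPA5 overlapped between states. PPIA, cyclophilin A, had 83.6, 97.8 and 99.4 CPM in ESC and 21.2, 25.7 and 15.6 CPM in NPC (log2 fold change -2.17 ± 0.22 SE, edgeR adjusted p = 9.3e-06). PPIA fell in every NPC library, and HSP90AA1 was the member named here that rose. For the chaperones the median deviation of ESC replicate 2 was -0.52.

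Of the cell cycle and replication genes, 9 of 51 tested members rose, 21 fell and 21 did not pass the threshold, with a median log2 fold change of -0.37. MKI67, the proliferation antigen Ki-67, had 121, 46.9 and 93.5 CPM in ESC and 383, 375 and 418 CPM in NPC (log2 fold change 2.16 ± 0.30 SE, edgeR adjusted p = 7.68e-05). CDKN1A, the CDK inhibitor p21, had 5.62, 6.89 and 5.36 CPM in ESC and 59.9, 51.03 and 54.5 CPM in NPC (log2 fold change 3.22 ± 0.23 SE, edgeR adjusted p = 8.19e-07). GINS2, a subunit of the replicative helicase, had 76.1, 118 and 88.2 CPM in ESC and 19.6, 27.3 and 23.5 CPM in NPC (log2 fold change -1.995 ± 0.23 SE, edgeR adjusted p = 2.07e-05). Ki-67 and p21 rose together while the helicase subunit fell. CCND3, a D cyclin, had 35.9, 43.1 and 41.8 CPM in ESC and 10.6, 9.20 and 10.6 CPM in NPC (log2 fold change -1.98 ± 0.22 SE, edgeR adjusted p = 1.31e-05). MCM7, a helicase subunit and the member with the most counts, had 1061, 399 and 978 CPM in ESC and 744, 768 and 751 CPM in NPC (log2 fold change -0.11 ± 0.32 SE, edgeR adjusted p = 0.784). CCND3 fell as GINS2 did. MCM7 did not pass with all libraries and passed without ESC replicate 2 (log2 -0.45, edgeR adjusted p = 0.00727); that library stood -0.62 from the other ESC libraries over the list.

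Noncoding RNA took a larger part of the NPC libraries. Small noncoding RNA held 3.96% ± 0.503 of counts in ESC and 7.14% ± 0.816 in NPC (SD, n = 3 each), Y RNA 0.329% ± 0.0535 of counts in ESC and 2.08% ± 0.468 in NPC (SD, n = 3 each) and small nucleolar RNA 0.750% ± 0.283 of counts in ESC and 1.39% ± 0.255 in NPC (SD, n = 3 each). Y RNA and small nucleolar RNA are counted within small noncoding RNA. Pseudogenes, which include the U1 copy among the largest gains, held 2.46% ± 0.136 of counts in ESC and 4.71% ± 0.222 in NPC (SD, n = 3 each). Protein-coding genes held 87.9% ± 2.01 of counts in ESC and 82.8% ± 1.62 in NPC (SD, n = 3 each). That change was -5.11 percentage points. Replication-dependent histones, mostly protein-coding (51 of 57 tested), changed by -2.53 points, so the fall did not only mirror the noncoding gain. For each of these shares every NPC library lay on the same side of every ESC library, and the exact two-sided permutation p was 0.1, the smallest that 3 against 3 allows. Of the small RNA list, 90 of 133 tested members rose, 3 fell and 40 did not pass the threshold. The median log2 fold change was 1.59. Of the tested members 59 are pseudogenes in RefSeq, and near-identical copies can share reads. Among 55 tested genes that RefSeq lists as small nucleolar RNA, 38 rose and 0 fell. The number of the list that fell was 6 without ESC replicate 2 and 1 without NPC replicate 2. Without the filter 141 rose and 5 fell. SNORD113-9, a C/D box RNA of the imprinted cluster that also holds MEG3, had 0, 0 and 0 CPM in ESC and 8.97, 8.37 and 11.8 CPM in NPC (at least 29.9-fold higher in NPC, edgeR adjusted p = 2.63e-05). RNU1-84P, another U1 copy, had 1.56, 0.861 and 0 CPM in ESC and 33.98, 32.1 and 35.99 CPM in NPC (log2 fold change 5.42 ± 0.47 SE, edgeR adjusted p = 2.61e-06). RMRP, the RNA of RNase MRP and the member with the most counts, had 15250.3, 24275 and 14788 CPM in ESC and 24276, 13495 and 22339 CPM in NPC (log2 fold change 0.15 ± 0.36 SE, edgeR adjusted p = 0.738). For RNU1-84P the log2 fold change was 6.52 without ESC replicate 1 and 4.70 without ESC replicate 3. RMRP overlapped between states with wide spread in both. The deviation of ESC replicate 2 over the small RNAs was -0.56 in the median.

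In a short list of long noncoding RNAs of stem cells, nuclear bodies and small RNA hosts, 8 of 23 tested members rose, 10 fell and 5 did not pass the threshold, with a median log2 fold change of 0.02. Shares higher and lower were 34.8% and 43.5%, where all tested genes had 31.6% and 30.3%. Over all 171 tested genes that RefSeq lists as long noncoding RNA, 65 rose and 40 fell, with a median of 0.43. LINC00678 had 137, 126 and 147 CPM in ESC and 5.13, 3.63 and 2.94 CPM in NPC (log2 fold change -5.15 ± 0.26 SE, edgeR adjusted p = 1.8e-07). GAS5, a small nucleolar RNA host and the member with the most counts, had 8373, 4214 and 7089 CPM in ESC and 7504, 8105 and 6387 CPM in NPC (log2 fold change 0.16 ± 0.31 SE, edgeR adjusted p = 0.671). LINC00678 was lower in every NPC library and GAS5 overlapped.

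**Figure D3:**
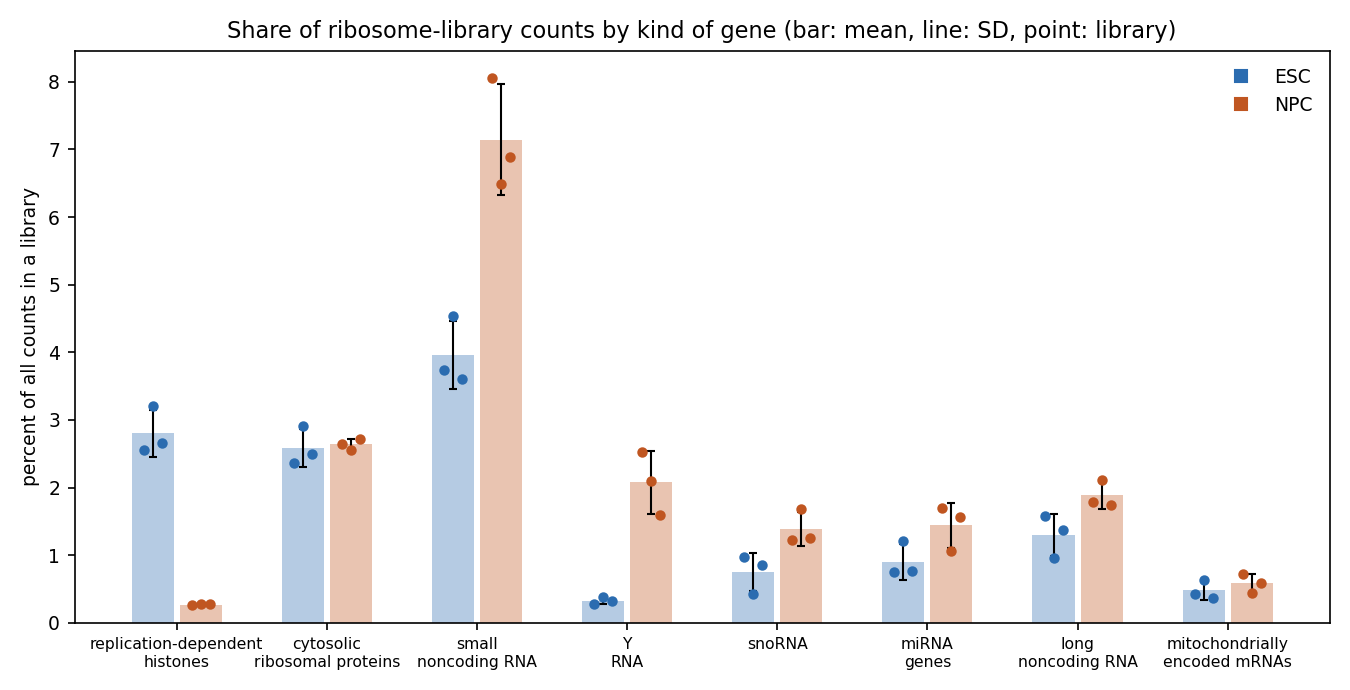
Percent of all counts in each ribosome library that fell on 8 kinds of gene, with bars at the mean of 3 libraries, lines of 1 SD, and a point per library (ESC blue, NPC orange). Histones drop from 2.80% to 0.269%, while Y RNA rises from 0.329% to 2.08%.

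The primary genes of microRNAs were looked at after the counts by kind had been seen. Of 63 tested, 34 rose, 3 fell and 26 did not pass, with a median log2 fold change of 0.89 (31.6% and 30.3% of all genes). Counts were made per gene, so the arms of a hairpin, its precursor and the transcript it lies in cannot be told apart. Mature arms of 6 follow, chosen after their values were seen, 3 of them from the miR-302 cluster to set neighbours side by side, from RefSeq on GRCh38.p14, with the seed (bases 2 to 8) in capitals.
hsa-miR-302a-3p (chr4:112648186-112648208, minus strand): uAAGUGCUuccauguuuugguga
hsa-miR-302b-3p (chr4:112648489-112648511, minus strand): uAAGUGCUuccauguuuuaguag
hsa-miR-302c-3p (chr4:112648366-112648388, minus strand): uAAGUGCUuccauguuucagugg
hsa-miR-33a-5p (chr22:41900949-41900969, plus strand): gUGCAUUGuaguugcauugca
hsa-miR-204-5p (chr9:70810031-70810052, minus strand): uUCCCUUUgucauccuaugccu
hsa-miR-182-5p (chr7:129770447-129770470, minus strand): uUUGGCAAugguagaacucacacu
The 3 printed members of the miR-302 cluster, microRNAs typical of human stem cells, share 1 seed, and the other 3 printed have a seed each. MIR302B had 63.7, 128 and 88.7 CPM in ESC and 823, 568 and 602 CPM in NPC (log2 fold change 2.83 ± 0.29 SE, edgeR adjusted p = 8.38e-06). MIR302A had 4420.1, 8267 and 4233 CPM in ESC and 10974, 5989 and 10884 CPM in NPC (log2 fold change 0.72 ± 0.36 SE, edgeR adjusted p = 0.101). MIR302C had 498.7, 752 and 612 CPM in ESC and 721, 398 and 619.7 CPM in NPC (log2 fold change -0.10 ± 0.26 SE, edgeR adjusted p = 0.761). MIR302B was higher in every NPC library, while MIR302A and MIR302C overlapped; without ESC replicate 2 MIR302A passed at log2 1.09 (edgeR adjusted p = 4.4e-05). In total RNA MIR302B fell (-3.53 on the log2 scale), and its change on ribosomes differed by 6.30 (edgeR interaction test, adjusted p = 2.65e-08). MIR33A, which lies within SREBF2, had 1.25, 5.17 and 1.07 CPM in ESC and 58.3, 36.3 and 53.6 CPM in NPC (log2 fold change 4.45 ± 0.43 SE, edgeR adjusted p = 6.13e-06). MIR204, which lies within TRPM3, had 11.9, 21.96 and 16.9 CPM in ESC and 95.2, 51.6 and 64.3 CPM in NPC (log2 fold change 2.07 ± 0.29 SE, edgeR adjusted p = 8.15e-05). MIR182 had 17.5, 27.6 and 18.2 CPM in ESC and 124, 70.6 and 64.3 CPM in NPC (log2 fold change 2.04 ± 0.29 SE, edgeR adjusted p = 0.0001). All 3 were higher in every NPC library, with ESC replicate 2 the highest ESC library each time; without it the log2 fold change of MIR33A was 5.36.

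Because many long genes rose and many short ones fell, the tested protein-coding genes were divided by the length their gene covers in RefSeq (span), a division made after the lists had been seen. The median log2 fold change on ribosomes was -0.73 for 932 genes under 5 kb, -0.49 for 5 to 10 kb, -0.20 for 10 to 20 kb, -0.06 for 20 to 50 kb, 0.15 for 50 to 100 kb and 0.57 for 2344 genes of 100 kb or more. Of the shortest class 158 genes rose and 470 fell, and of the longest 1108 rose and 459 fell. In total RNA the same classes gave medians from -0.09 to 0.01. ESC replicate 2 also moved with span: its median against the other ESC libraries went from 0.32 in the shortest class to -0.09 in the longest. Without ESC replicate 2 the shortest class was at -0.598 and the longest at 0.553. With an offset per library that followed gene span these were -0.204 and 0.00228. That offset was built to take out a relation with span over all tested genes that have one, so the smaller values test nothing. Among protein-coding genes the shortest class remained the lowest.

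**Figure D4:**
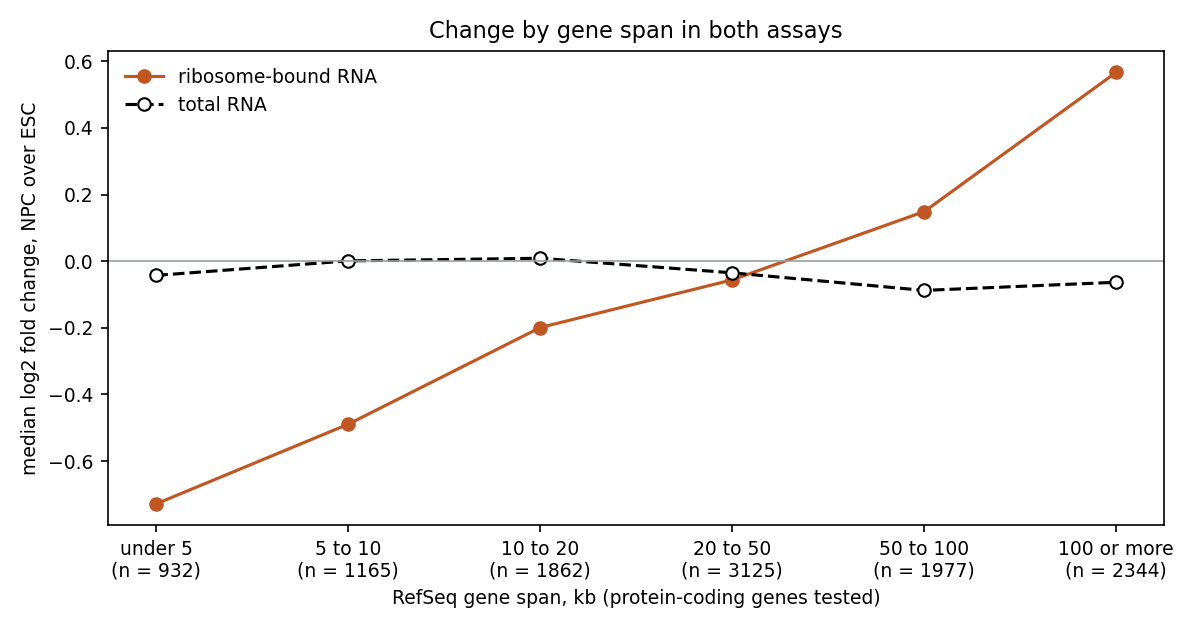
Median log2 fold change (NPC over ESC) of tested protein-coding genes in 6 classes of RefSeq gene span in kb, for ribosome-bound RNA (filled) and total RNA (open). The ribosome line climbs from -0.73 to 0.57, while the RNA points stay between -0.09 and 0.01.

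Against total RNA, the change on ribosomes differed for 5022 of 11866 genes that could be fitted in both assays (42.3%, edgeR interaction test). Both assays called 1803 genes higher and 1974 lower, and 390 genes were higher on ribosomes and lower in RNA with a difference past the threshold, against 124 the other way. Pluripotency genes had nearly the same median in both (-2.82 on ribosomes, -2.84 in RNA), and 10 of 29 members differed. Ribosomal proteins had a median of -0.64 on ribosomes and 0.33 in RNA, with 53 of 78 members differing. The mitochondrially encoded mRNAs had 0.26 and -1.77, with 12 of 13. Members tested can differ between the assays, so the medians are set side by side as a description.

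**Figure D5:**
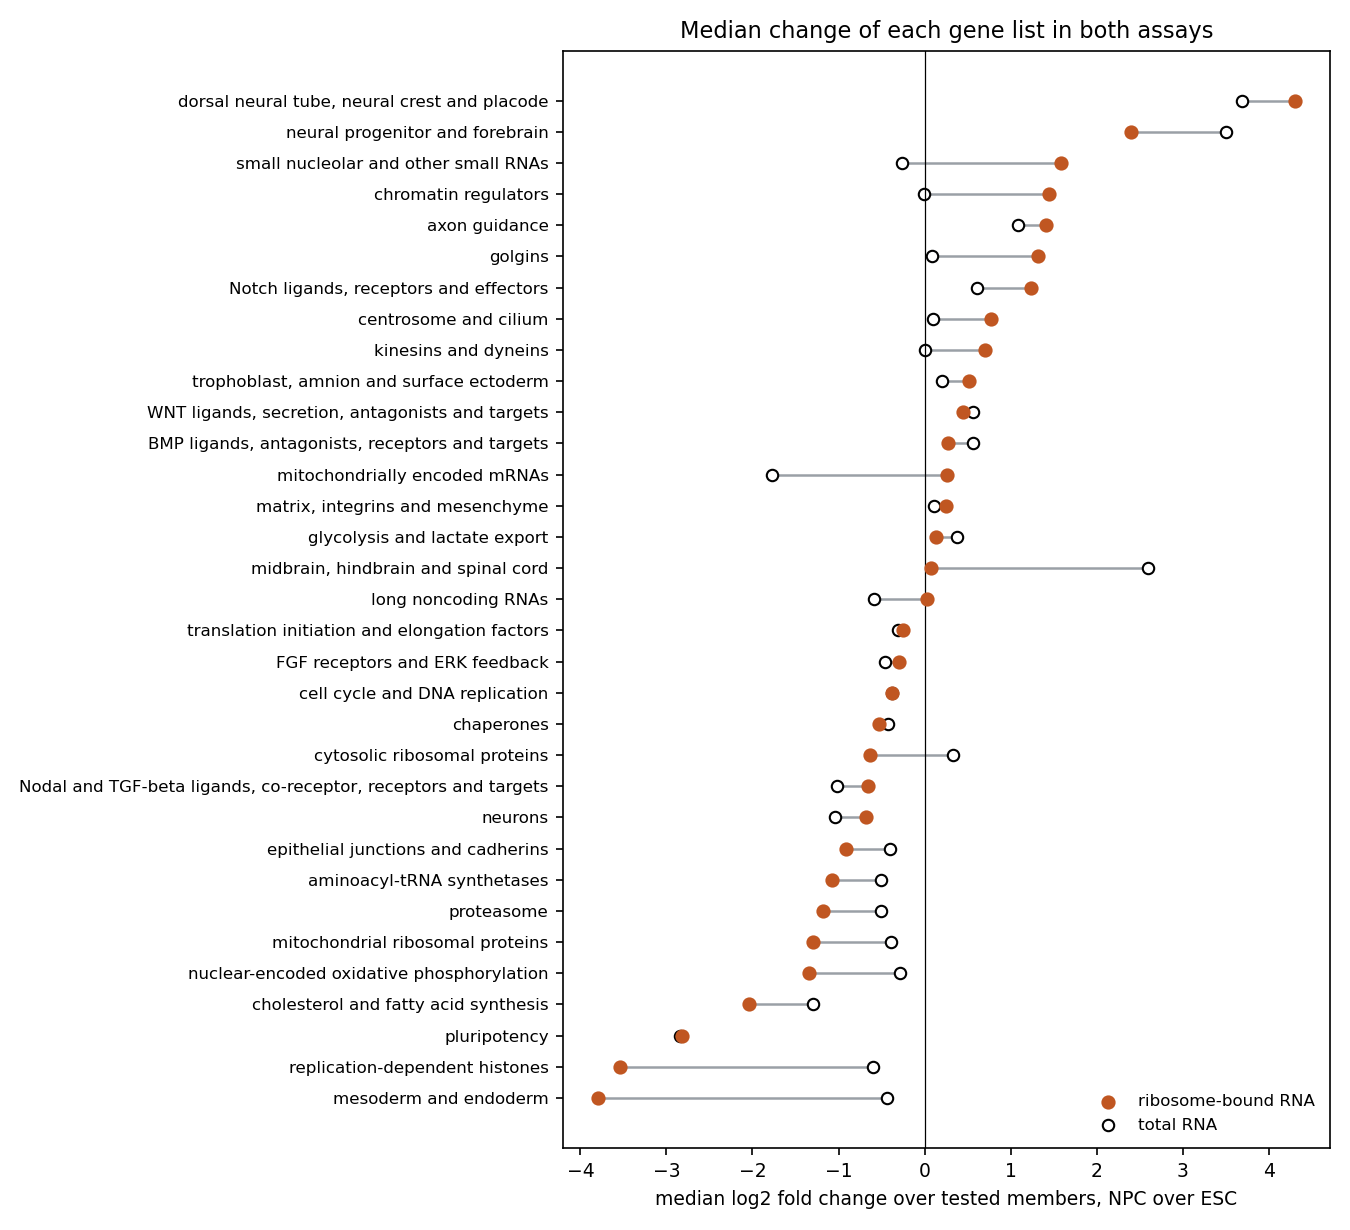
Median log2 fold change (NPC over ESC) over the tested members of each gene list, on ribosomes (filled) and in total RNA (open). The markers lie almost together for pluripotency and cell cycle genes and apart for histones (-3.54 and -0.60) and mitochondrially encoded mRNAs (0.26 and -1.77).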

How the data were processed

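Per the labels, ribosome-bound total RNA of HUES8 ESC and NPC was sequenced in 3 libraries per state. The authors deposited 1 table of raw counts per gene symbol for 12 libraries. Tools listed, per the submitters' processing notes, were featureCounts 1.6.4, STAR 2.7.1a, Bowtie 1.2 and cutadapt 1.18, on build GRCh38 (hg38). The sources used here give no annotation release, counted feature, strand setting or treatment of multi-mapping reads, so genes with antisense partners, overlaps or near-identical copies are uncertain.

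Symbols passing filterByExpr in the 6 ribosome libraries were tested with edgeR 4.0.16 (R 4.3.3): TMM factors, quasi-likelihood test, Benjamini-Hochberg threshold 0.05. The difference from RNA was an interaction term over all 12 libraries. Alternatives used DESeq2 1.42.0, limma 3.58.1 (voom), other scalings and filters, and each library left out. Simulated data made from these libraries had 12250 genes, 100 of them changed 2-fold and 100 changed 4-fold. Of these, 40% and 95% were recovered, and 6.897% of calls were false. In the real data 61.8% of tested genes were called, so these rates cannot be carried over to it. Library totals of 2422756 to 4451196 put 3 counts at 0.679 to 1.292 CPM in a library. A state with no count was set at 3 counts over its 3 libraries for a lower bound. Counting intervals (95%, Clopper-Pearson) cover counting error only. RefSeq matched 37282 of 59050 symbols.

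Members and gene lists were chosen with earlier results of these data known. The text names the 15 largest rises and falls without overlap and with a mean of at least 10 CPM, the 5 largest gains and losses of CPM, 2 rises, 2 falls and the most abundant member per list, and key markers; not all of these are described, and some genes are not reported here. TDGF1, FOXH1, CDH1, CDH2, CHD7, KMT2D, HIST1H4C, HIST1H2BB and the microRNA genes were chosen after their values were seen.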

Additional observations from a re-analysis of the deposited data

Results flagged for a closer look

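For 10 genes the ribosome-bound RNA and the total RNA changed in opposite directions, each past the threshold, and edgeR's interaction test called the difference as well. Values are log2 fold changes of NPC over ESC with the SE, then the ribosome-bound change minus the RNA change. FGF17, a ligand of the midbrain-hindbrain boundary, changed by -1.73 ± 0.23 on ribosomes and by 2.61 ± 0.24 in RNA, a difference of -4.40 (edgeR adjusted p = 1.02e-06). DKK1, a WNT antagonist, changed by -2.56 ± 0.45 on ribosomes and by 1.52 ± 0.26 in RNA, a difference of -4.14 (edgeR adjusted p = 4.86e-05). Total RNA of both was low: FGF17 averaged 0.752 CPM in ESC and 4.67 CPM in NPC, and DKK1 0.526 and 1.52 CPM. CCDC88A, the actin-binding protein girdin, changed by 3.03 ± 0.25 on ribosomes and by -0.66 ± 0.18 in RNA, a difference of 3.63 (edgeR adjusted p = 1.7e-06). ARL3, a GTPase of cilia, changed by -1.16 ± 0.23 on ribosomes and by 0.65 ± 0.14 in RNA, a difference of -1.87 (edgeR adjusted p = 6.6e-05). GOLGA4, a golgin, changed by 3.68 ± 0.26 on ribosomes and by -0.61 ± 0.16 in RNA, a difference of 4.22 (edgeR adjusted p = 1.02e-06). GOLIM4, a Golgi membrane protein, changed by 1.19 ± 0.19 on ribosomes and by -0.83 ± 0.14 in RNA, a difference of 1.95 (edgeR adjusted p = 8.53e-06). ATP5MF, an ATP synthase subunit, changed by 1.15 ± 0.24 on ribosomes and by -0.60 ± 0.20 in RNA, a difference of 1.69 (edgeR adjusted p = 0.000575). MT-ND2, a complex I subunit made in the mitochondrion, changed by 1.14 ± 0.21 on ribosomes and by -1.65 ± 0.13 in RNA, a difference of 2.73 (edgeR adjusted p = 2.21e-06). MT-ND1, another such subunit, changed by 0.84 ± 0.27 on ribosomes and by -1.77 ± 0.12 in RNA, a difference of 2.55 (edgeR adjusted p = 2.39e-05). The call of MT-ND1 on ribosomes was lost without ESC replicate 3, NPC replicate 1 or NPC replicate 3 (log2 fold changes 0.66, 0.70 and 0.83). MIR302B, a microRNA gene chosen after its values were seen, changed by 2.83 ± 0.29 on ribosomes and by -3.53 ± 0.15 in RNA, a difference of 6.30 (edgeR adjusted p = 2.65e-08). Over all genes fitted in both assays, 390 were higher on ribosomes and lower in RNA with a called difference, and 124 the other way, so these 10 are only those named in the text. No test for single outlying values was run on groups of 3 libraries.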

How the results depend on the processing

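The counts of 3865 genes higher and 3707 lower stayed within 1.5 times under each setting: 3735 higher and 3720 lower with DESeq2, 3930 higher and 3617 lower with limma-voom, 3801 higher and 3807 lower with DESeq2's size factors, 3767 higher and 3820 lower on total counts, 3894 higher and 3657 lower on protein-coding totals, 4332 higher and 4221 lower without the filter, 3390 higher and 3261 lower at a mean of at least 10 CPM, 4065 higher and 4029 lower with all 12 libraries in the fit, and 3535 higher and 3792 lower with gene span offsets, which were added after seeing the data. With a replicate block the counts were 3574 higher and 3191 lower. Same-numbered deviations from the mean of a state correlated at -0.177, -0.253 and -0.008, and differently numbered ones at -0.146 to 0.223. Deviations from a mean of 3 libraries are tied to each other, so these values cannot tell whether replicates were paired. Leaving out 1 library gave 3533 to 4430 higher and 3123 to 4244 lower. Of 184 genes checked, 171 were called, none of these changed direction under the 16 settings where it could be fitted (13 genes were not tested at a mean of at least 10 CPM and 4 had no gene span), and 5 lost the call under at least 1 (LIN28A, QARS, MT-ND1, RNU2-39P and CDH2). Under the replicate block the calls of LIN28A, QARS and MT-ND1 were lost (edgeR adjusted p = 0.0621, 0.0622 and 0.0543). Log2 fold changes of genes that did not pass crossed 0: with 1 library left out KRT8 ran from -0.32 to 0.14, ID3 from -0.067 to 0.21, ROBO2 from -0.34 to 0.12, ENO1 from -0.38 to 0.083, MCM7 from -0.45 to 0.12, GAS5 from -0.091 to 0.37 and MIR302C from -0.27 to 0.13. KRT8 was at 0.057 with limma-voom and 0.038 with the replicate block, and MCM7 at 0.034, 0.0083 and, with gene span offsets, 0.159. Of 1056 counts over gene lists, 38 moved by more than 1.5 times. Gene span classes were chosen after seeing the data. With gene span offsets their medians were -0.204 (under 5 kb), -0.167 (5 to 10 kb), -0.0644 (10 to 20 kb), -0.0989 (20 to 50 kb), -0.119 (50 to 100 kb) and 0.00228 (100 kb or more), and at a mean of at least 10 CPM the third class was at -0.265 and the last at 0.667. Leaving out 1 library gave -0.788 to -0.598 for the shortest class and 0.553 to 0.615 for the longest. The changes in share of counts, in percentage points, ran over the same omissions from -6.26 to -4.17 for protein-coding genes, -2.66 to -2.34 for histones, 2.73 to 3.51 for small noncoding RNA and 1.52 to 1.99 for Y RNA. Classes by protein length and protein-length offsets were not run, since no protein table was used here. Depth limits what can be said of genes under about 1 CPM. The 40% recovery at 2-fold came from simulated data in which far fewer genes changed than were called here. How many 2-fold changes were missed here was therefore not tested, and some can be missed.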
